A study of Bos taurus with 16 samples.

Results

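NPR3 (ENSBTAG00000007665) encodes the natriuretic peptide clearance receptor. Its counts were followed here through 16 RNA-seq libraries of adipose and muscle tissue from Holstein bull calves, in which it was 1 of 44265 features and the only feature of its merged locus (XLOC_019501). NPR3 was chosen because of its difference between 5-HTP and CON muscle in these same libraries, that is, it was selected on the false discovery rate (FDR) of that comparison. The muscle difference is therefore a description. Tests are given for adipose tissue, whose libraries the choice did not use, and for the mean difference between the tissues. The choice was on the treatment difference in muscle, not on this mean. The mean nevertheless holds the same muscle libraries, so its test is not wholly independent of the choice.

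Natriuretic peptides are hormones released by the heart (ANP and BNP) and by vessel walls and other tissues (CNP). They act through NPR1 and NPR2, receptors that carry a guanylyl cyclase and raise cyclic GMP inside the cell. NPR3 binds the same peptides, lacks the guanylyl cyclase domain, and takes its ligands into the cell for degradation; it can also couple to inhibitory G proteins. Fat cells are a known site of this clearance receptor, and natriuretic peptides are known to stimulate the breakdown of stored fat in humans. Osteocrin, a peptide made in bone and muscle, also binds NPR3.

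The study asked how a larger supply of serotonin changes gene expression in fat and muscle of calves before weaning. Calves of both groups were about 21 days old when supplementation began and drank 8 L of milk replacer per day for 10 days. It held saline in the CON group. In the 5-HTP group it held 90 mg per day of 5-hydroxytryptophan, the direct precursor of serotonin. Tissues were taken on the morning that followed the last of these days. Subcutaneous adipose tissue from the region of the tail head and pelvis and muscle from the gluteus medius were collected from 8 calves, 4 per treatment. This gave 4 libraries for each tissue and treatment, numbered 1 to 4 (CON) and 5 to 8 (5-HTP) in each tissue; the labels do not state that equal numbers mark the same calf.

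Libraries held 17289845 to 25221353 counts in adipose tissue and 20655954 to 28649548 in muscle. A count of 3, taken here as the limit of detection, corresponded to 0.105 to 0.174 CPM (counts scaled to the size of the library), and NPR3 lay above it in every library with 73 to 1028 counts. TTN and IGFN1, both genes of the muscle sarcomere, checked the tissue labels. The feature called TTN here is a merged locus without an Ensembl identifier, to which the study gives that name. Its level is not shown to be that of the whole titin gene. TTN was at 0 to 0.461 CPM in adipose tissue and 12.8 to 59.4 CPM in muscle. IGFN1 was at 0 to 0.463 and 928 to 4333 CPM. None of the 6 adipocyte markers and none of the 7 muscle fibre markers listed for this report could be tied to a feature. The fat label was therefore checked only by the near absence of TTN and IGFN1. The library adipose CON 2 stood apart. It had counts in 25897 features, against 30225 to 31580 in the other adipose libraries, and its mean correlation with them was 0.945, against 0.965 to 0.974 for the others. Among muscle libraries, muscle CON 1 was the least like the rest, with counts in 24051 features against 25373 to 26925, a mean correlation of 0.969 against 0.979 to 0.982, and a TMM factor of 0.838 against 0.966 to 1.08.

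In adipose tissue NPR3 was expressed at overlapping levels in both treatments. On the CPM scale normalised within the tissue by the trimmed mean of M-values (TMM), the 4 CON libraries held 15.8, 7.06, 24.5 and 29.0 CPM, from 356, 110, 496 and 549 counts. The 4 5-HTP libraries held 19.5, 18.001, 25.8 and 33.4 CPM, from 466, 440, 599 and 577 counts. The lowest value was that of adipose CON 2, and the highest CON library was above 3 of the 4 5-HTP libraries. The group means were 19.1 ± 9.70 CPM (SD, n = 4) in CON and 24.2 ± 7.01 CPM (SD, n = 4) in 5-HTP.

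The 5-HTP against CON log2 fold change of NPR3 in adipose tissue was 0.34 (SE 0.39, 95% confidence interval -0.43 to 1.11), a fold of 1.27 with an interval from 0.740 to 2.16. It did not pass the test (FDR = 0.999, edgeR likelihood ratio test, Benjamini-Hochberg over 20167 features; FDR = 0.966 by the edgeR quasi-likelihood test). The threshold was an FDR of 0.20, which 22 of the 20167 features met (0.109%). In a two-sided exact permutation test over all 70 ways to draw 4 of the 8 libraries, the difference of the mean log2 CPM was 0.48 with p = 0.4, where the smallest p the design allows is 0.0286. Without adipose CON 2 the log2 fold change was 0.06, and the exact permutation test gave a difference of 0.07 with p = 0.8. The interval of the fold spans both a lower and a higher level in 5-HTP fat.

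**Figure D1:**
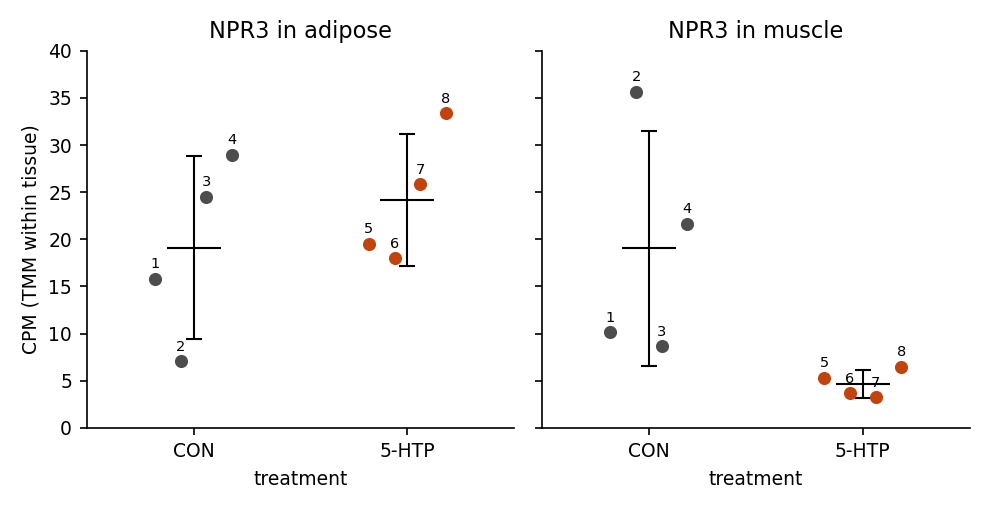
NPR3 level in each library, in CPM normalised within each tissue, on a linear axis; points are libraries with their number, and the horizontal line and bars give the mean and SD of the 4 libraries of a group. Adipose groups overlap, whereas all 4 muscle 5-HTP libraries (3.27 to 6.46 CPM) lie below all 4 muscle CON libraries (8.68 to 35.7 CPM), which is the difference on which the gene was chosen.

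In muscle NPR3 was lower in the 5-HTP libraries, as its choice required. The 4 CON libraries held 10.1, 35.7, 8.68 and 21.6 CPM, from 217, 1028, 223 and 642 counts. The 4 5-HTP libraries held 5.33, 3.64, 3.27 and 6.46 CPM, from 165, 88, 73 and 132 counts. The groups did not overlap, and muscle CON 2 and CON 4 held the highest values while CON 1 and CON 3 lay closer to the 5-HTP libraries. Of the 16878 features tested in muscle, 232 (1.37%) had all 4 5-HTP libraries below all 4 CON libraries. The means were 19.0 ± 12.5 CPM (SD, n = 4) in CON and 4.68 ± 1.49 CPM (SD, n = 4) in 5-HTP. In bulk tissue, fewer cells that express a gene and less RNA of that gene per cell cannot be told apart.

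The log2 fold change in muscle was -2.02 (SE 0.41, 95% confidence interval -2.83 to -1.22), a level 4.07-fold lower in 5-HTP. The edgeR likelihood ratio FDR that chose NPR3 was 0.00558, the sixth smallest P-value of 16878, and 34 features (0.201%) met an FDR of 0.20. By the edgeR quasi-likelihood test the FDR of NPR3 was 0.966 although its rank was the same, and 1 feature met the threshold; by DESeq2 the FDR was 0.00141. Without muscle CON 1, the log2 fold change was -2.24. Without muscle CON 2, the library with the most NPR3, the log2 fold change was -1.53, or 2.89-fold lower. Across the other libraries left out in turn it lay between -2.27 and -1.89.

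**Figure D2:**
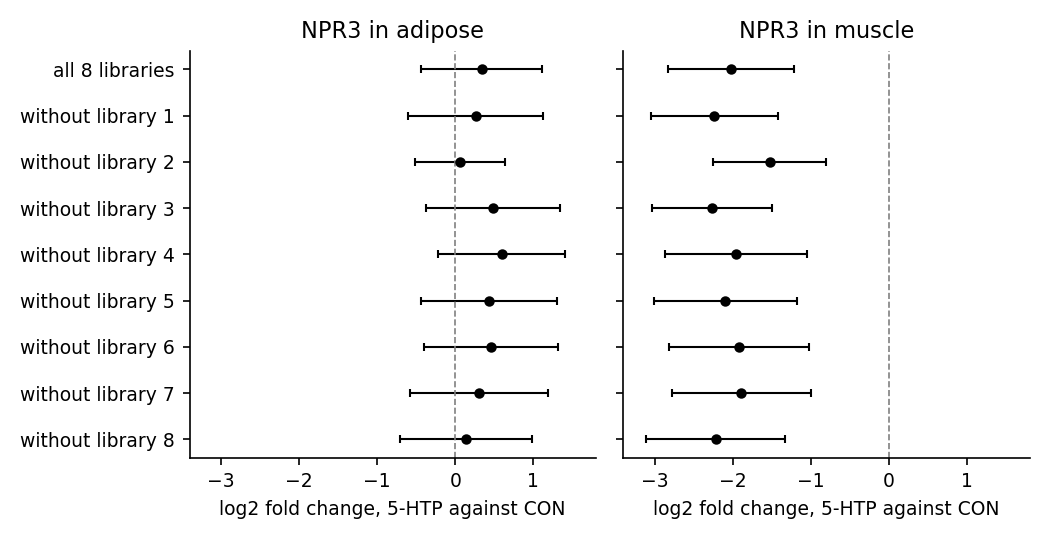
Log2 fold change of NPR3, 5-HTP against CON, in adipose tissue and in muscle, with all libraries and with each library number left out in turn; points are edgeR estimates and bars are 95% confidence intervals. The adipose estimates lie between 0.06 and 0.59 and the muscle estimates between -2.27 and -1.53; the muscle values are a description, since they chose the gene.

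Several named genes were also at lower levels in the 5-HTP muscle libraries, and that they differ was fixed by how they were picked. Others of the named list, such as IFI47 and ANKRD37, were higher. Of the 34 features that met an FDR of 0.20 in muscle, 22 were lower and 12 higher in 5-HTP. Symbols were available only for features that the study lists as differing between treatments in these libraries, so the direction of C1QB, SIGLEC1, TTN, IGFN1, EGR1 and FOS in muscle is no independent evidence. C1QB (a complement component made by macrophages) and SIGLEC1 (a macrophage surface lectin) are the 2 of 5 leukocyte markers with a symbol, and their summed level was 5.997 to 18.7 CPM in muscle CON and 2.49 to 5.34 CPM in muscle 5-HTP. In adipose tissue the same sum overlapped, with 65.6 to 96.1 CPM in CON and 19.4 to 90.02 CPM in 5-HTP. The treatments did not overlap in muscle for the merged locus named TTN or for IGFN1 either. TTN was at 32.6 to 59.4 CPM in CON and 12.8 to 21.1 CPM in 5-HTP. IGFN1 was at 1709 to 4333 and 928 to 1604 CPM. The immediate early genes EGR1 and FOS, which encode transcription factors, also separated the treatments in muscle, with 37.8 to 687 against 11.4 to 26.8 CPM for EGR1 and 22.5 to 116 against 5.69 to 15.8 CPM for FOS. Both were highest in muscle CON 2, which held the most NPR3. In adipose CON 2, which held the least of the adipose libraries, they were at the lowest level of the adipose CON group (37.05 and 3.596 CPM). SIGLEC1 had the same pattern, with 2.36 CPM in muscle CON 2 and 6.74 CPM in adipose CON 2. TTN was also highest in muscle CON 2, and C1QB was also lowest of the adipose CON group in adipose CON 2. C1QB (9.09 CPM) and IGFN1 (2272 CPM) were not highest in muscle CON 2. The part of these genes in the NPR3 difference was not tested. Of the other listed markers, 4 endothelial, 4 fibroblast and 4 smooth muscle genes, none could be tied to a feature.

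Side by side, the 5-HTP log2 fold changes were 0.34 in adipose tissue and -2.02 in muscle. In one fit over all 16 libraries, the muscle value less the adipose value was -2.37 (SE 0.60). This difference contains the comparison that chose NPR3 and was not tested. It was -1.59 (SE 0.48) without both libraries numbered 2.

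Averaged over both treatments, NPR3 did not pass the test of a difference between muscle and adipose tissue with all 16 libraries under TMM normalisation. The log2 difference, muscle less adipose, was 0.0036 (SE 0.30, 95% confidence interval -0.59 to 0.59, FDR = 0.993 by the edgeR likelihood ratio test over 16 libraries). In that fit the interval of the ratio of the tissues ran from 0.666 to 1.51. It does not bound the ratio under other scaling, since under library totals the interval ran from 0.286 to 0.692. Without both libraries numbered 2 the log2 difference under TMM was -0.43 (95% confidence interval -0.90 to 0.04). That value met the FDR threshold of 0.20 (FDR = 0.103, edgeR likelihood ratio test), although its interval spans both signs. In that fit 16815 of 21369 features (78.7%) met the threshold. With all 16 libraries, 17066 of 21849 features (78.1%) differed between the tissues at an FDR of 0.20. Under TMM the treatments had opposite values. The muscle less adipose log2 difference was 1.19 (SE 0.42) in CON and -1.18 (SE 0.43) in 5-HTP. Both are given as descriptions, because each holds a side of the muscle comparison that chose the gene. The CON value was 0.69 without muscle CON 2 and 0.87 without adipose CON 2, and under library totals the values were 0.0065 in CON and -2.35 in 5-HTP.

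The order of the groups depended on how the 2 tissues were brought to one scale. With TMM over 16 libraries, muscle CON was highest at 28.7 ± 18.9 CPM (SD, n = 4; 12.9 to 54.0), followed by adipose 5-HTP at 15.99 ± 4.55 (12.1 to 21.9), adipose CON at 12.6 ± 6.40 (4.58 to 18.9) and muscle 5-HTP at 7.05 ± 2.17 (5.00 to 9.66). Each group overlapped its neighbour in this order. Divided by library totals only, adipose 5-HTP came first at 24.1 ± 6.71 CPM (17.4 to 32.7), muscle CON and adipose CON followed at 19.5 ± 13.9 (8.49 to 37.8) and 19.3 ± 10.0 (6.36 to 29.1), and muscle 5-HTP was again lowest at 4.74 ± 1.57 (3.16 to 6.39). There each group again overlapped its neighbour, muscle 5-HTP and adipose CON only between 6.36 and 6.39 CPM.

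**Figure D3:**
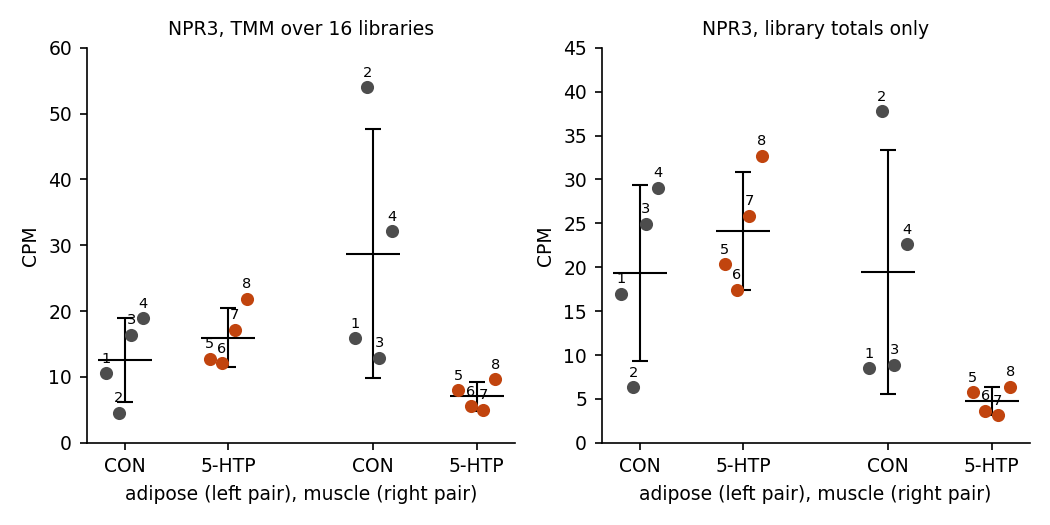
NPR3 level in the 4 groups, in CPM, under TMM over 16 libraries and under library totals only, on axes of different length; points are libraries with their number, and the horizontal line and bars give the mean and SD (n = 4). Muscle CON is the highest group under TMM (28.7 CPM) and adipose 5-HTP under library totals (24.1 CPM), and muscle 5-HTP is the lowest under both.

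TMM factors, which adjust a library's size for its composition, were 1.39 to 1.61 in adipose libraries and 0.535 to 0.721 in muscle libraries. Under library totals the mean muscle less adipose log2 difference of NPR3 was -1.17 (FDR = 0.000533, edgeR likelihood ratio test), where the median over all features was -1.33. The median was -0.14 under TMM and -0.20 under DESeq2-type size factors (RLE). Relative to that median, NPR3 was 0.15, 0.15 and 0.16 log2 units higher in muscle under TMM, RLE and library totals.

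With all libraries included, NPR3 varied more between libraries of one group than most features of its abundance. The highest CON library exceeded the lowest by 4.10 times in adipose tissue and by 4.11 times in muscle, and the highest 5-HTP library by 1.86 and 1.97 times. The coefficient of variation of the CPM was 50.8% in adipose CON, 29.0% in adipose 5-HTP, 65.7% in muscle CON and 31.8% in muscle 5-HTP (n = 4 each). Counting error, at 3.12 to 11.7% per library, was well below these values. The SD of log2 CPM was 0.91 and 0.95 in CON and 0.41 and 0.46 in 5-HTP, adipose and muscle in that order. Without the library numbered 2 it was 0.45 in adipose CON and 0.70 in muscle CON. Whether CON varied more than 5-HTP was not tested.

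The biological coefficient of variation that edgeR estimated for NPR3 was 38.4% in adipose tissue and 39.7% in muscle. In adipose tissue this was above 92.9% of the 2017 features of similar mean, whose median was 25.4%. In muscle it was above 98.6% of 1688 features, whose median was 21.3%. Without the library numbered 2 the estimates were 26.3% and 32.7%. The adipose estimate then lay close to the 25.4% median of similar features, which was taken with that library included. The share of similar features below NPR3 was not computed without it. The adipose and muscle CON libraries numbered 2 were at opposite ends of their groups: adipose CON 2 held the lowest NPR3 level of its tissue and muscle CON 2 the highest.

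**Figure D4:**
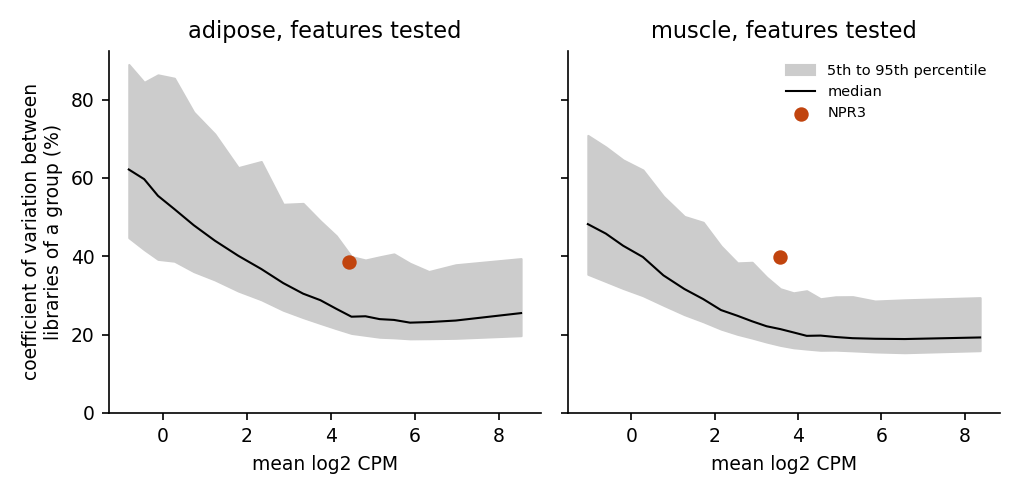
Biological coefficient of variation (percent) against mean expression (log2 CPM) in adipose tissue and in muscle; the line is the median and the band the 5th to 95th percentile of all tested features by expression, and the marked point is NPR3. NPR3 lies above the median of features of similar mean in both tissues (38.4% against 25.4%, and 39.7% against 21.3%).

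The features most like NPR3 were sought by the Pearson correlation of log2(TMM CPM + 0.5) over the 16 libraries, after the mean of each tissue and treatment group was subtracted. The likeness is thus of variation within groups and does not use the treatment difference. The libraries share their tissue, depth and the composition that scales them. Adipose CON 2 and muscle CON 2 held the NPR3 levels farthest from their group means and so weigh heavily in the correlations. The correlations were not computed without them. Over 15695 features the correlation ran from -0.88 to 0.85 with a median of 0.03, and the central 90% lay between -0.52 and 0.52. It was above 0.8 for 12 features and below -0.8 for 10. The 2 most like NPR3 were XLOC_039210 (r = 0.85; 0.82 within adipose tissue and 0.92 within muscle) and ENSBTAG00000020272 (r = 0.85; 0.77 and 0.91). The 2 least like it were ENSBTAG00000021260 (r = -0.88) and ENSBTAG00000018975 (r = -0.87). With ranks in place of values, 3 of the 5 leading features stayed among the first 5. A pair of those 3 had identical correlations, fold changes and mean levels under separate identifiers, so they are not 3 distinct profiles. With the muscle libraries only, 0 of the 5 stayed among the first 5.

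Of the features with a gene name, which the study lists as differing between treatments, 25 could be compared, and their correlations lay between -0.46 (COLQ, the collagen tail of acetylcholinesterase) and 0.53 (ANKRD37, a hypoxia-responsive ankyrin repeat protein), with a median of 0.06. CISH (a cytokine signalling inhibitor) was at 0.38, FOS at 0.34, SIGLEC1 at 0.31 and EGR1 at 0.29. All of these lie within the range of most features or close to its edge. The correlations describe 16 libraries and carry no test.

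**Figure D5:**
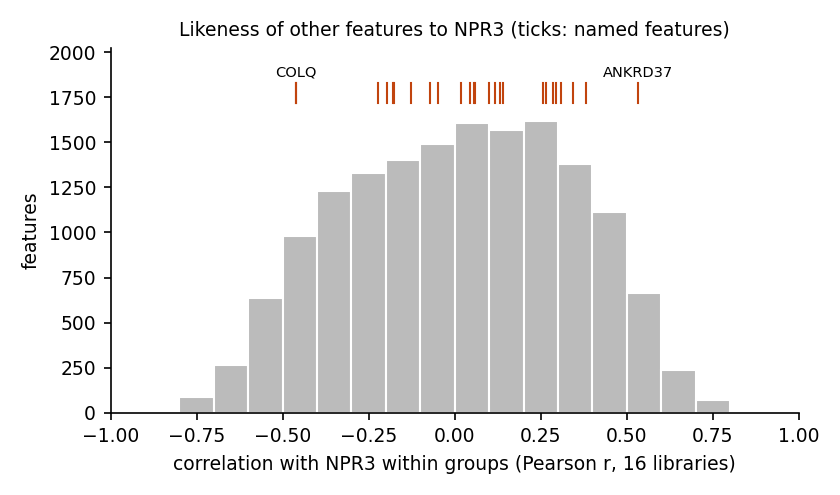
Distribution over 15695 features of the Pearson correlation with NPR3 across 16 libraries after subtracting group means; the vertical axis counts features, and ticks above show the 25 named features. Most features lie between -0.52 and 0.52, and the named genes run from -0.46 to 0.53.

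The rest of the natriuretic peptide pathway was not analysed here. Of 32 symbols listed for it (ligands and their processing enzymes, receptors, guanylyl cyclases, cyclic GMP effectors and inhibitory G protein signalling), NPR3 was the 1 that could be tied to a feature by name, so no value is given for the peptides or for NPR1 and NPR2. The protein-coding neighbours of NPR3 in the RefSeq table of assembly ARS-UCD2.0 are TARS1 and SUB1, and 0 genes of that table overlap it.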

How the data were processed

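Poly-A RNA-seq counts were deposited by the authors, 1 file per library. Per the labels, reads were checked with FastQC 0.11.7, trimmed with Trim Galore 0.4.4, mapped to ARS-UCD1.2 with HISAT2, assembled and merged with the annotation by Cufflinks 2.2.1, and counted with HTSeq. Values are raw counts per feature; the strand setting of the counting is not given in the sources used here. A feature was kept where 4 or more libraries of the fit each held 10 counts or more. Each tissue was fitted by itself with edgeR 4.0.16 (R 4.3.3; TMM, tagwise dispersions, likelihood ratio test), as the methods of the study describe, with Benjamini-Hochberg adjustment over all features and an FDR threshold of 0.20; the tissue difference used 4 group means over 16 libraries. The scripts were tested on simulated data. Exact permutation tests used SciPy 1.17.1 (Python 3.11.15), and figures matplotlib 3.10.9. Alternatives were the quasi-likelihood test, DESeq2 1.42.0, RLE, library totals, other filters, shared dispersions, the replicate block and leaving out libraries. Library totals and leaving out 1 CON library numbered 2 were added after seeing the data.

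NPR3 and the lists were chosen with earlier results of these data known. Named features were NPR3, listed markers and pathway symbols, and the features with the highest and lowest correlations (at most 2 unnamed identifiers at each end); TTN, IGFN1, EGR1 and FOS were chosen after their values were seen. Symbols came from the 31 features that the supplementary tables of the study name, which are lists of genes differing between treatments. The p-values rest on the spread between these libraries, 1 per calf and tissue. For the edgeR tests the estimate of that spread also draws on other features. The test between the tissues treated the 16 libraries as independent, with no term for the calf. The confidence intervals given for log2 fold changes, log2 differences and their ratios include the spread between libraries that edgeR estimated. The counting error given per library and the limit of detection rest on counts only and leave out that spread.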

Additional observations from a re-analysis of the deposited data

How the results depend on the processing

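The adipose and muscle 5-HTP differences of NPR3 kept their direction and their side of the FDR threshold under DESeq2, RLE, library totals, both other filters, shared dispersions and each library left out. The quasi-likelihood test, which gives an FDR of 0.966 for NPR3 in muscle, is the exception. Leaving out each library number gave log2 fold changes of 0.06 to 0.59 in adipose tissue (edgeR FDR 0.919 or higher) and -2.27 to -1.53 in muscle (edgeR FDR 3.73e-05 to 0.138). The mean muscle less adipose log2 difference, 0.0036 in the reported fit, changed sign without passing the threshold under DESeq2 (-0.054), RLE (-0.054), no filter (-0.026), without adipose CON 2 (-0.18) and without muscle CON 2 (-0.25); under library totals it was -1.17 and passed. With each number left out it ran from -0.43 to 0.20. The lowest value, without both libraries numbered 2, also passed the threshold (edgeR FDR = 0.103), with an interval from -0.90 to 0.04. The other 7 fits did not pass. The muscle less adipose difference of the treatment effects ran from -2.76 to -1.59. Library numbers were not shown to pair the tissues. Correlations of deviations within numbers were -0.224 and -0.0586 for numbers 1 and 2, and 0.101 to 0.269 for the other 6. Each of those 6 correlated best with its own number, where only the 4 muscle libraries of the same treatment were compared. In the same comparison adipose 1 correlated best with muscle 3, and adipose 2 with muscle 1. The match of the 6 is a hint of pairing from the data, which numbers 1 and 2 do not share. The labels do not state a pairing. Leaving out both libraries numbered 2 is therefore not shown to leave out 1 calf. With number as a replicate block the tissue difference was -0.071 and the difference of effects -2.23. Counts at an FDR of 0.20 depended on the test and on single libraries. Adipose tissue had 22, or 1 by quasi-likelihood, and 4 to 56 with a library left out. Muscle had 34, or 1 by quasi-likelihood, 21 under library totals, 15 with shared dispersions and 13 to 188 with a library left out. Where no cause is shown by the setting itself, the cause was not tested.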

Other observations

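In the numbering of merged loci, NPR3 lies between 2 features with values of their own. XLOC_019500 held 7 counts over the adipose libraries and 0 over the muscle libraries. XLOC_019502 (ENSBTAG00000021965) had a 5-HTP against CON log2 fold change of 0.09 in adipose tissue (edgeR FDR = 0.999) and 0.31 in muscle (edgeR FDR = 0.997).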
